A study of Salmo salar with 6 samples.

Results

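The genes described here are 7 Atlantic salmon genes of the neutrophil and macrophage lineages, measured in the head kidney. They were chosen by name, with earlier results of these data known. A probe was taken where the RefSeq accession in its name belongs to one of them. Each gene had 1 probe, so 7 of the 42386 transcript probes on the array are followed, for 7 of the 25460 genes that could be matched. For granulocytes, the white cells that carry granules and include neutrophils, there are 4: cebpa, csf3r, mpx and ncf4. For macrophages, the tissue phagocytes, there are 3: aif1, lgmn and apoeb.

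The fish were juveniles of 252 g that had eaten a basal diet (control, 0% additive) or that diet with 0.1% of MPLE, a plant additive made from sage and lemon verbena, for 133 days. Each diet gave 3 pools of head kidney RNA of 6 fish each, and each pool was read on 1 one-colour Agilent array. The labels do not say which tanks a pool drew on, and p-values measure the spread between these pools. No cells were sorted, so every value is a whole-organ value, and fewer cells of a type and less RNA per cell cannot be told apart.

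In bony fish the head kidney does the work that bone marrow does in mammals: blood stem cells there give rise to granulocytes and to monocytes and macrophages. The transcription factor C/EBP alpha, encoded by cebpa, acts in progenitors on the granulocyte path. Granulocyte colony-stimulating factor, acting through its receptor CSF3R, drives the growth and release of granulocytes. Neutrophils then fill granules with myeloperoxidase (mpx) and assemble an NADPH oxidase, which ncf4 helps to switch on, to kill microbes with oxidants. Macrophages engulf dead cells and microbes, digest them in lysosomes with proteases such as legumain (lgmn) and pass on lipid with apolipoprotein E (apoeb). These roles are known mainly from mammals and zebrafish.

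Levels are log2 of the background-corrected signal relative to the 75th percentile of each array, and changes are MPLE minus control. Control pool 3 stood apart: that percentile was 133 intensity units there, against 394 to 709 on the other arrays. It also had the fewest spots well above background, 18046 of 42438 against 24841 to 33020. Changes of the 7 single genes are given with and without it. Gene pairs are given with it only, except pairs with mpx, which lack a value there. Each of the 7 probes exceeded background on every array, and all passed the filter on dim probes.

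The 3 macrophage genes were higher in every MPLE pool than in every control pool, by 1.58-fold for aif1, 2.18-fold for lgmn and 1.93-fold for apoeb. Over all probes tested the diets did not overlap for 28.2%, 16.3% higher and 11.9% lower with MPLE. The 4 granulocyte genes did not move together. The receptor gene csf3r was 2.2-fold higher with MPLE, mpx was 1.89-fold lower, cebpa was 1.49-fold lower and ncf4 overlapped between the diets. None of the 7 passed limma's test adjusted over all probes at 0.05, which 0.467% of the 23130 probes tested did, 0.419% higher and 0.0476% lower with MPLE. At an unadjusted p under 0.05, csf3r, aif1 and apoeb were higher and mpx lower, that is 4 of 7 genes, where 17.4% of all probes passed, 11.5% higher and 5.89% lower. Log2 changes were above 0 for 5 of the 7, and for 49.3% of all probes. The 7 genes were chosen with earlier results known, so their shares beside those of all probes are no test of the set. Probes past the adjusted threshold had absolute log2 changes of at least 1.71, more than any of the 7 showed.

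**Figure D1:**
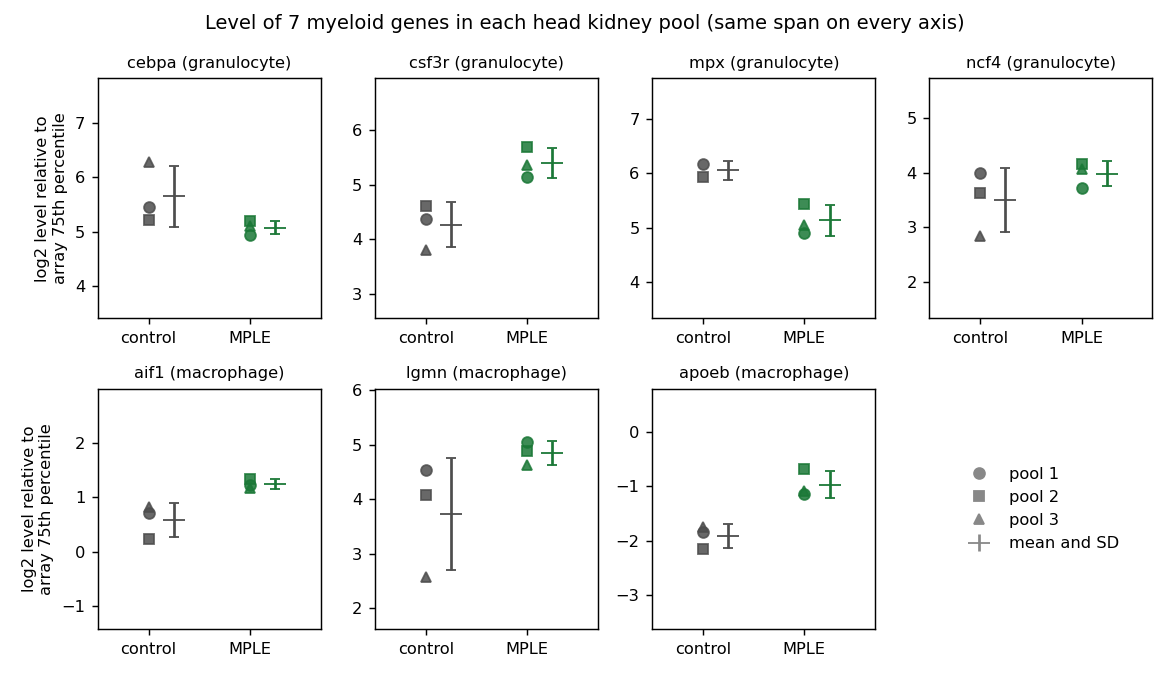
Log2 level of each gene relative to the array's 75th percentile (vertical axes, same span in every panel) in the control pools (grey) and MPLE pools (green), with the mean and SD of each diet beside the points; marker shape gives the pool number. The groups do not overlap for any gene but ncf4, where 28.2% of all probes tested do not overlap, and control pool 3 is missing for mpx, where its spot was flagged.

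Among the granulocyte genes, cebpa stands earliest in the lineage. Its level was 5.45, 5.21 and 6.28 in control pools 1, 2 and 3 and 4.94, 5.19 and 5.10 in MPLE pools 1, 2 and 3. Control pool 3 stood high, and the nearest pools of the diets, control pool 2 and MPLE pool 2, all but met. The log2 change was -0.57 with an SE of 0.33 (adjusted p = 0.395 by limma, n = 3 each). Without control pool 3 it was -0.26.

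The receptor gene csf3r passes the signal of granulocyte colony-stimulating factor into the cell. Its level was 4.36, 4.62 and 3.81 in control pools 1 to 3 and 5.15, 5.69 and 5.37 in MPLE pools 1 to 3. All MPLE pools lay above all control pools, with control pool 3 the lowest. The change was 1.14 with an SE of 0.31, a 95% interval of 0.42 to 1.86 that is not adjusted for the number of probes, and an adjusted p = 0.135 by limma (n = 3 each). Without control pool 3 it was 0.91 with an adjusted p = 0.142 by limma.

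The myeloperoxidase gene mpx differed in the opposite direction. It stood at 6.17 and 5.93 in control pools 1 and 2 and at 4.90, 5.44 and 5.05 in MPLE pools 1 to 3. Both measured control pools were above all MPLE pools. The spot in control pool 3 was flagged as non-uniform and was left out of the fit, so the change of -0.92 (SE 0.31, 95% interval -1.67 to -0.17, adjusted p = 0.215 by limma) rests on 2 control pools. With flagged spots kept the change was -1.35. Scaling between arrays does not enter the csf3r level less the mpx level within an array. That difference was -1.81 and -1.32 in control pools 1 and 2 and 0.24, 0.25 and 0.32 in MPLE pools 1 to 3. With control pool 3 left out for both genes, the change of csf3r exceeded that of mpx by 1.83 on the log2 scale.

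The oxidase subunit gene ncf4 had levels of 4.00, 3.64 and 2.85 in control pools 1 to 3 and of 3.72, 4.15 and 4.08 in MPLE pools 1 to 3. The diets overlapped, since MPLE pool 1 lay below control pool 1. The change of 0.49 (SE 0.35, adjusted p = 0.473 by limma) was 0.16 without control pool 3, the lowest array. Its 95% interval, -0.34 to 1.31, spans both directions.

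Of the macrophage genes, aif1 encodes a calcium-binding protein that bundles actin in microglia and other macrophages. Its level was 0.71, 0.23 and 0.82 in control pools 1 to 3 and 1.22, 1.34 and 1.17 in MPLE pools 1 to 3. The MPLE pools lay close together and above all control pools, of which pool 2 was the lowest. The change was 0.66 with an SE of 0.26 and a 95% interval of 0.05 to 1.27 (adjusted p = 0.261 by limma, n = 3 each), and 0.77 without control pool 3.

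Legumain, the product of lgmn, is a lysosomal protease that cuts after asparagine and activates other proteases. Its level was 4.54, 4.08 and 2.57 in control pools 1 to 3 and 5.05, 4.88 and 4.62 in MPLE pools 1 to 3. Control pool 3 was far below the other pools, which gave lgmn the widest spread among control pools of the 7 genes, an SD of 1.03 against 0.22 among MPLE pools. The change of 1.12 (SE 0.50, adjusted p = 0.307 by limma, n = 3 each) was 0.54 without that pool and 0.31 with array weights.

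The gene apoeb, one of the fish genes for apolipoprotein E, codes for a lipid carrier that macrophages secrete. It stood at -1.84, -2.16 and -1.75 in control pools 1 to 3 and at -1.14, -0.68 and -1.09 in MPLE pools 1 to 3. Every MPLE pool was above every control pool. The change was 0.95 with an SE of 0.26 and a 95% interval of 0.33 to 1.56 (adjusted p = 0.143 by limma, n = 3 each), and it was 1.03 without control pool 3.

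**Figure D2:**
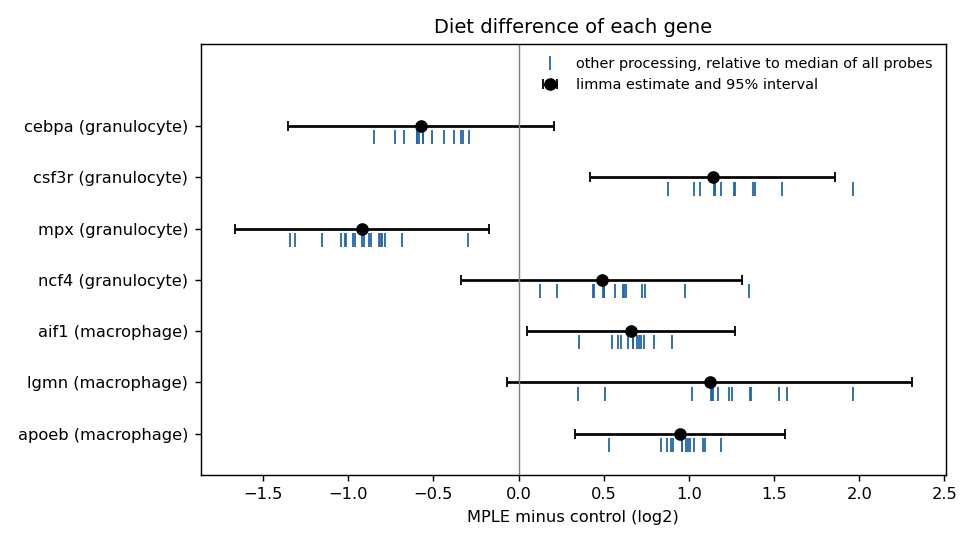
Log2 change, MPLE minus control (horizontal axis), of each gene: black points and bars are the limma estimate with its 95% interval, and blue ticks are the estimate under each of 18 other ways of processing, less the median of all probes under that processing. Every tick lies on the same side of 0 as its black point, and the intervals of cebpa, ncf4 and lgmn include 0. Settings that changed only the probe filter or the variance estimate could not move a gene's own estimate.

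The comparison of granulocyte with macrophage genes was made per pool. Each gene was first centred on its mean over the arrays with a value, 5 for mpx and 6 for the others. The mean of the 3 macrophage genes was -0.12, -0.54 and -0.71 in control pools 1 to 3 and 0.46, 0.60 and 0.31 in MPLE pools 1 to 3. For the 4 granulocyte genes it was 0.14, -0.01 and -0.33 in control pools and -0.18, 0.26 and 0.04 in MPLE pools, which overlap. The value of -0.33 in control pool 3 is a mean of 3 genes, since mpx has no value there. The granulocyte mean less the macrophage mean was 0.39 ± 0.14 under control and -0.42 ± 0.19 under MPLE (SD, n = 3 each), a difference of -0.80 on the log2 scale with no overlap. Centring makes the signs opposite by construction. The granulocyte mean itself differed by 0.11, or 0.03 as the mean of the 4 gene changes, and the macrophage mean by 0.91. Leaving out mpx, which lacks control pool 3, the difference was -0.56 and the diets still did not overlap. Gene pairs within an array varied. For csf3r, every pair with a macrophage gene overlapped between the diets. The level of csf3r less lgmn changed by 0.02, aif1 less csf3r by -0.48 and apoeb less csf3r by -0.19. Pairs of ncf4 with aif1 and apoeb overlapped too, but only through control pool 3. There aif1 less ncf4 was -2.03 and apoeb less ncf4 -4.60. In control pools 1 and 2 both lay below all MPLE pools (-3.29 and -3.41, -5.85 and -5.80). The MPLE pools ran from -2.90 to -2.50 and from -5.17 to -4.83. The pair of ncf4 with lgmn did not overlap, but control pool 1 (0.537) and MPLE pool 3 (0.542) all but met. Pairs of cebpa and of mpx with the macrophage genes did not overlap. Genes of the same set parted too. Of all 21 pairs 14 did not overlap, 6 of them with mpx, and of the 9 pairs within a set 7 did not. The pairs share genes, and the share for pairs among all probes was not computed. These counts therefore only describe the 7 genes. No pair of granulocyte genes overlapped, with changes of -1.71 for cebpa less csf3r and -1.08 for mpx less ncf4. The level of cebpa less csf3r was 1.09, 0.60 and 2.48 in control pools 1 to 3, so control pool 3 enlarged that change. In MPLE pools 1 to 3 it was -0.21, -0.50 and -0.27. Pairs with mpx rest on 2 control pools. The contrast of the means is therefore not a split that every gene of a set follows. No p-value is given for the granulocyte and macrophage means, since the genes were chosen with results known.

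The granulocyte less macrophage contrast depended on the signal and background correction used. From the raw median signals with normexp background correction, which added an offset of 50 intensity units, the difference was -0.28 in place of -0.80. The diets then overlapped, with 0.01 in control pool 3 and 0.01 in MPLE pool 2. The processed signal of apoeb was below that offset in control pool 3, at 39.6 units. The part of the offset in these values was not tested. Under that correction csf3r (1.75) and lgmn (1.75) were still higher in all MPLE pools, while cebpa (-0.59), mpx (-0.51), ncf4 (1.14), aif1 (0.39) and apoeb (0.32) overlapped between the diets. Scaling mattered too. Centring the arrays on the mean of the spike-in probes shifted the median of all probes to -0.46. Then csf3r (0.70), lgmn (0.68) and ncf4 (0.05) overlapped. Without overlap, aif1 (0.22) and apoeb (0.51) were higher and cebpa (-1.015) and mpx (-1.47) lower. The spike-in mean included E1A_r60_3, E1A_r60_n9 and E1A_r60_a97, which were higher on MPLE arrays by 2.91, 2.15 and 0.71 before this centring. Changes of the other spike-in probes ran from -0.49 to 0.29. Centring on those others alone was not tested. With median centring, cebpa (-0.61), aif1 (0.62) and ncf4 (0.45) overlapped.

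**Figure D3:**
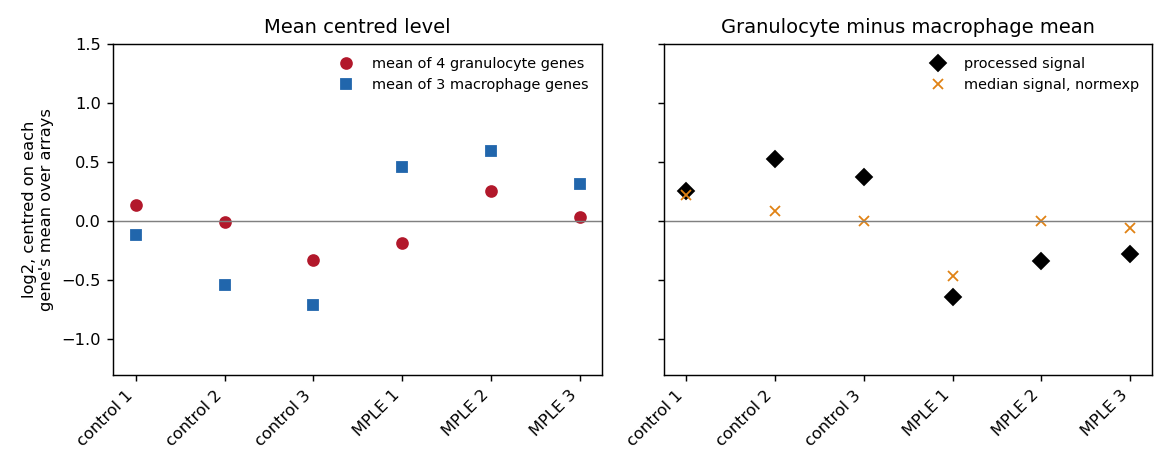
Left, mean log2 level of the 4 granulocyte genes (circles, without mpx in control pool 3) and of the 3 macrophage genes (squares) in each pool, each gene centred on its mean over the arrays. Right, the granulocyte mean less the macrophage mean per pool from the processed signal (diamonds), where the diets do not overlap, and from normexp-corrected median signals (crosses), where the diets overlap.

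The step between the raw and the processed signal was most uneven in control pool 3. The scanner software writes a processed signal for each spot after subtracting background and levelling trends across the slide. The ratio of processed signal to median signal less background ran from 0.45 to 2.53 (5th to 95th percentile of 8523 bright spots) in control pool 3 and from 0.75 to 1.61 in control pool 1. In control pool 2 and the MPLE pools, the lowest of these percentiles was 0.83 and the highest 1.25.

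On control pool 3 the 7 genes fell on both sides of it. The ratio was 2.48 for lgmn, 2.16 for ncf4, 2.00 for mpx and 1.85 for csf3r, whose signals were raised, and 0.61 for cebpa, 0.75 for aif1 and 0.67 for apoeb, whose signals were lowered. For lgmn, ncf4 and csf3r, control pool 3 was the lowest pool even after this step, and for cebpa the highest. Other control pools were touched as well. The ratio of apoeb was 0.67 in control pool 2 too, against 0.83 to 1.07 in the MPLE pools, and that of csf3r was 1.31 in control pool 1. Leaving out control pool 3 therefore does not remove the adjustment for these genes. The part of this adjustment in the diet differences was not tested beyond the values given without control pool 3 and from the median signals.

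**Figure D4:**
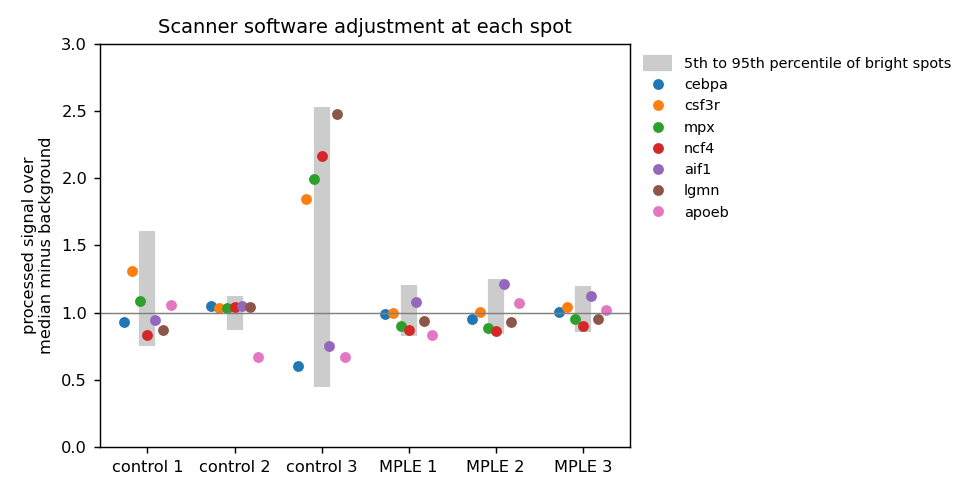
Ratio of processed signal to median signal less local background (vertical axis) at the spot of each gene (coloured points) on each array; grey bars span the 5th to 95th percentile of 8523 bright spots. On control pool 3 lgmn, ncf4, mpx and csf3r lie between 1.85 and 2.48 and cebpa, aif1 and apoeb between 0.61 and 0.75.

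Around these genes, 8 lists of related myeloid genes were read from the same fit. Of 70 such genes tested, members included, none passed the adjusted threshold by limma, 6 were higher and 2 lower at an unadjusted p under 0.05, and the median change was 0.06, against -0.01 over all probes. Without the 7 genes themselves, 3 of 63 were higher and 1 lower at that level. These shares lie at or below those of all probes, 11.5% and 5.89%.

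Of 12 myeloid transcription factor genes (median 0.09), cebpb, a C/EBP factor of emergency granulopoiesis and macrophage activation in mammals, had a change of 0.70 where cebpa had -0.57. The levels of cebpb were 5.03 ± 0.28 under control and 5.74 ± 0.14 under MPLE, with no overlap (SD, n = 3 each; adjusted p = 0.231 by limma). In the same list klf4, a monocyte factor, had a change of 2.35 (adjusted p = 0.293 by limma) that was 1.03 without control pool 3, and its probe was well above background on 2 of 3 control arrays. The macrophage factor gene mafba was at -0.64, or -0.31 without control pool 3. Of 5 growth factor and receptor genes (median 0.31) only csf3r passed the unadjusted threshold. The macrophage growth factor il34 was at 0.31 and the oncostatin M receptor osmr at 0.34, and both were below 0 with spike-in centring (-0.13 and -0.10).

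No NADPH oxidase gene passed the unadjusted threshold. The membrane subunit gene cyba, measured in 2 control pools, was at 0.12, where ncf4 was at 0.49. For cyba the change was -0.11 without control pool 2 and -0.43 with spike-in centring. Of 14 genes for granule and oxidative burst proteins (median -0.03), mpx was the only one past it. The antimicrobial peptide and iron hormone hamp was at 0.67, or -0.08 with normexp, and srgn, the proteoglycan that packs granules, at -0.32, or 0.03 with normexp. The granule protease gene mmp9, named here after its value was seen, was at 7.81 ± 0.38 under control and 7.83 ± 0.29 under MPLE (SD, n = 3 each), a change of 0.03. Of 5 genes for neutrophil adhesion, migration and signalling (median 0.16) none passed the unadjusted threshold, and the Src family kinase hck (0.70), the formyl peptide receptor fpr1 (0.41) and the kinase syk (0.16) had the smallest p. Without control pool 3, hck was at 0.23, fpr1 at 0.22 and syk at 0.44. With spike-in centring fpr1 (-0.03) and syk (-0.28) were below 0. Without control pool 2, syk was at 0.01.

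Other macrophage genes pointed both ways. Of 12 macrophage markers (median 0.04), 7 had positive changes, where 49.3% of all probes did. The unadjusted threshold was passed by 2, aif1 and acod1, and by 17.4% of all probes, so these counts lie near those shares. The itaconate-making enzyme acod1 was at -2.20, -3.48 and -4.28 in control pools 1 to 3 and at 0.46, -1.84 and -1.84 in MPLE pools 1 to 3. MPLE pool 1 stood far above the rest, and the probe was well above background on 2 of 3 control arrays. The change of 2.24 (adjusted p = 0.208 by limma) was 1.48 without MPLE pool 1 and 0.54 with normexp. The tetraspanin gene cd9 was at -0.69, or -0.44 without control pool 3. Further markers are named here after their values were seen. The pore protein gene mpeg1.1 (-0.53) was lower and the complement gene c1qb (0.50) higher in every MPLE pool than in every control pool, while cd68 (-0.78), c1qa (0.01) and grna (0.43) overlapped. Of the 12 markers 3 were higher and 1 lower without overlap, where 16.3% and 11.9% of all probes were.

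The 11 lysosomal protease and related genes had a median of -0.19, and lgmn had the highest change among them. The hexosaminidase hexb (-0.45) and the tripeptidyl peptidase tpp1 (-0.53) had negative changes, which were -0.26 and -0.12 without control pool 3. With normexp tpp1 was at 0.21, and none of the 11 passed the unadjusted threshold. Of 9 apolipoprotein and lipid efflux genes (median -0.06), apoeb and the lysosomal cholesterol exporter npc1 (1.93, and 1.08 without control pool 3; adjusted p = 0.234 by limma) were higher and apoa1 (-2.76, and -1.62 without MPLE pool 1; adjusted p = 0.282 by limma) lower at that level. For apoa1 the diets overlapped, and its change was -0.89 with array weights. The other apolipoprotein E gene on the array, apoea, was not tested, being well above background on 1 of 6 arrays.

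**Figure D5:**
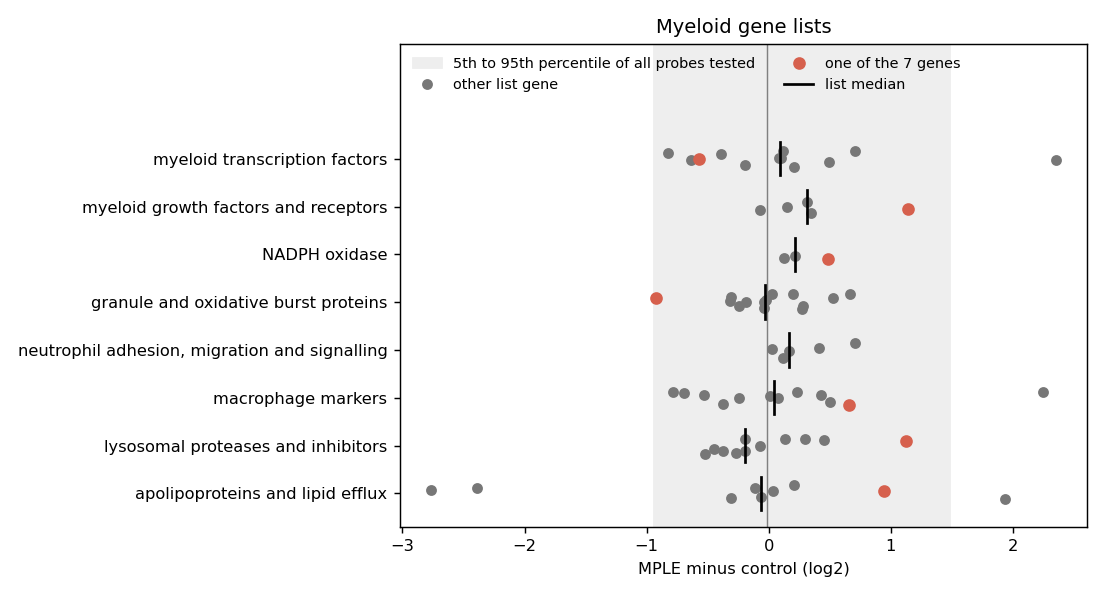
Log2 change, MPLE minus control (horizontal axis), of every tested gene of 8 myeloid lists, with the 7 genes in red, other genes in grey and list medians as black bars; the shaded band spans the 5th to 95th percentile of all probes tested, -0.94 to 1.49. List medians lie between -0.19 and 0.31.

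Markers of other cells in the organ are given for comparison, with their part in these results not tested. At an unadjusted p under 0.05, 11.5% of all probes were higher and 5.89% lower. For the steroid-making interrenal tissue of the head kidney, star stood at 7.01 ± 0.28 under control and 7.36 ± 0.11 under MPLE (SD, n = 3 each), and mrap had a change of -0.13. Of 9 interrenal and chromaffin genes on the array only 5 passed the filter on dim probes, and 0 of these 5 passed the unadjusted threshold. Of 7 T cell and NK genes 4 were higher at that level, among them eomes (1.04; well above background on 2 of 3 control arrays) and lck (0.66), and their summed level was 3.05 to 3.19 in control and 3.35 to 3.43 in MPLE pools. Of 7 B cell genes none passed it, with xbp1 at -0.66 and pou2af1 at -0.40.

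Among red cell genes 2 of 6 were higher and 1 lower, the first being the globins hba (1.27) and hbb (1.46), each measured in 2 MPLE pools. Of 5 thrombocyte genes 2 were lower, itga2b (-0.97) and f5 (-1.48; well above background on 2 of 3 MPLE arrays), and of 6 endothelial and stromal genes 1 was higher, col1a1b (1.21), and 1 lower, kdr (-1.13). Skeletal muscle genes were lower for 5 of 8, casq1b (-2.57) and tnnt3 (-1.69) among them, with a summed level of 4.12 to 6.16 in control and 3.17 to 3.83 in MPLE pools. Of 9 kidney tubule genes on the array 4 were tested, and 3 were lower, with cdh16 at -2.05 and agxtb at -2.72. Their summed level was 3.82 to 5.49 in control and 3.96 to 4.13 in MPLE pools. That sum rests mainly on aqp1, named here after its value was seen, at 4.23 ± 0.90 under control and 3.97 ± 0.09 under MPLE (SD, n = 3 each). The sum therefore says little of the other tubule genes. The gene agxtb, whose probe was well above background on 3 of 3 control but 2 of 3 MPLE arrays, was past the adjusted threshold (adjusted p = 0.0396 by limma), but no probe was in any fit that left out an MPLE array. Both casq1b (1.43) and cdh16 (2.26) had their highest level in control pool 3.

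The genes most like each of the 7 across the arrays were sought among named genes well above background on all arrays compared, 4478 over 6 arrays and, for mpx, 4540 over 5, by the root-mean-square difference of centred log2 levels, which is 0 for identical profiles. For csf3r they were pai2b, tbcd and sorf (0.09 to 0.12), and for lgmn rpain, tnfaip8l2b and sf3b6 (0.11 to 0.12). For apoeb they were mrps14, a mitochondrial ribosomal protein, tmsb4x, an actin-binding thymosin, and akts1 (0.11 to 0.12). For aif1 they were ndufb2, vdac1 and selenom (0.06 to 0.07), of which the first encode mitochondrial proteins.

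For cebpa the nearest were atg7, cdc45 and bloc1s3 (0.03 to 0.04), and for ncf4 exosc4, si:ch211-107m4.1 and mettl17 (0.05 to 0.07). For mpx they were rab3gap1, cdc42bpb and tspan37 (0.07 to 0.10). None of the 7 was among the 3 nearest of another, but mpx, without a value in control pool 3, was no candidate for the others. For comparison, the median difference to all named genes compared ran from 0.39 for cebpa to 0.99 for lgmn.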

How the data were processed

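Per the labels' protocols, Cy3-labelled cRNA with spike-in RNA was hybridised to one-colour arrays. Per the file headers, Feature Extraction version 10.7.3.1 wrote a processed intensity per spot, after background subtraction and detrending on each array. The authors' deposited series table holds log2 values: each column equals log2 of the array's background-subtracted signal, with column medians of 5.19 to 7.52, so no scaling or centring between arrays was applied. The design text speaks of a reference design; the one-colour files were followed. Here outlier-flagged spots were left out, log2 processed intensity less each array's 75th percentile was averaged per probe, and probes that exceeded background on all arrays of 1 or both diets, with at least 2 values per diet, entered limma 3.58.1 (lmFit, eBayes; R 4.3.3), with diet as the only term, two-sided, adjusted by Benjamini-Hochberg over 23130 probes. P-values measure the spread between pools and arrays. The number of arrays limits the precision. Accessions were matched without versions to RefSeq genes of Ssal_v3.1, 25641 of 42386 probes; no probe build is given in the sources used, so no coordinates are printed. Salmon carry duplicated genes, and cross-hybridisation was not tested.

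The genes and lists were chosen with earlier results of these data known. Lists were matched by symbol or synonym, and each list gene was read at its brightest tested probe. Named were the 7 genes, the 3 list genes of smallest p in each myeloid list, any past the adjusted threshold, the 2 of smallest p in each marker list, and the 3 nearest profiles; exceptions are marked, and 1 gene the rule names is not reported here. Summed levels use genes with a value on every array. Alternatives are given with the closing section. Same-numbered pools did not deviate together, with correlations of -0.177, -0.34 and 0.083, so they were not paired. The fit was tested on simulated data.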

Additional observations from a re-analysis of the deposited data

Results flagged for a closer look

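Among 10 probes for RNA added during labelling, 3 gave values on the MPLE arrays that all lay above those on the control arrays, higher for E1A_r60_3 by 2.91, E1A_r60_n9 by 2.15 and E1A_r60_a97 by 0.71 on the log2 scale. The second exceeded background in all 32 of its spots throughout, at 6.36 ± 0.68 on control and 8.51 ± 0.07 on MPLE arrays (SD, n = 3 each). The first and second differences exceed those of the 7 genes. For the third, control pool 1 (5.533) and MPLE pool 3 (5.535) all but met. The first was measured from near background. Its control levels were -5.03 to -4.33, and on the array with the fewest only 1 of its 32 spots was well above background. All 3 probes entered the mean used for spike-in centring, so every value given with that centring depends on them. Centring without them was not tested, nor was their part in the diet differences.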

How the results depend on the processing

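Under 18 alternatives none of the 7 genes passed the adjusted threshold, except csf3r (1.02, adjusted p = 0.0181 by limma), mpx (-1.05, adjusted p = 0.0286) and apoeb (0.83, adjusted p = 0.0361) with array weights, where 2971 of all probes passed and lgmn was at 0.31. Directions of the 7 held under every alternative except for cebpa, at 0.20 in the deposited series values, which are not scaled between arrays and moved the median of all probes to 1.05. That median was -0.46 with spike-in centring and -0.21 with normexp. Relative to the median of all probes, all 7 genes kept their sign in all 19 settings. Settings that changed only the probe filter or the variance estimate could not move a gene's own estimate. The number of probes called, 108, was 24 with quantile normalization, 558 with median centring, 14 with spike-in centring (8 higher and 6 lower, against 97 and 11), 28 with normexp and 475 with the pool number as a replicate block, under which none of the 7 genes passed but acod1 (2.24, adjusted p = 0.0257 by limma) and apoa1 (-2.76, adjusted p = 0.0146 by limma) did. It was 0 by limma without the filter on dim probes (4107 at unadjusted p under 0.05) and 0 in the deposited series values (3854). Leaving out 1 array at a time it ran from 0 to 176, with 0 without MPLE pool 1, 2 or 3 (2589, 2505 and 2268 at unadjusted p), 176 without control pool 2 and 169 without control pool 3. With the percentile taken over all spots, an alternative chosen after seeing the data, it was 79.

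The granulocyte less macrophage difference was -0.28 with normexp and -0.99 with outlier spots kept, and from -0.89 to -0.70 leaving out 1 array. The median of the 70 myeloid list genes was -0.42 with spike-in centring, 1.17 in the deposited series values and from -0.09 to 0.11 leaving out 1 array. Averaging several probes of a gene gave no separate value, since each of the 7 has 1 probe. Slide could not enter a fit. Signals near background limit apoeb, the dimmest, at 39.6 intensity units in control pool 3.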
